A study of Mus musculus with 2 samples.

Results

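The genes described are 10 well-known transcriptional targets of p53, Mdm2, Ccng1, Phlda3, Zmat3, Sesn2, Bbc3, Bax, Fas, Trp53inp1 and Gdf15. They were chosen by gene symbol in the authors' deposited table, where 10 of 10 were found among 23365 genes. Transcript levels come from RNA sequencing of cultured mouse embryonic fibroblasts, the mesenchymal cells of the embryo, with 1 library of wild-type cells and 1 library of cells labelled TET1/TET2 knocked out. TET1 and TET2 are enzymes that oxidize 5-methylcytosine in DNA. The labels give no strain, embryo age, passage or knock-out allele. The table names its 2 sides A and B, and the sources used here do not say which side is the knock-out. Every ratio below is therefore that of B over A, its base-2 logarithm is written log2(B/A), and neither direction is given to a genotype. With 1 library per genotype there is no replicate error, and the authors' p-values compare 2 libraries and not the genotypes.

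The transcription factor p53 is held at a low level in unstressed cells by the ubiquitin ligase Mdm2, which is itself a p53 target, so the pathway carries its own brake. When DNA damage, oncogene activity or culture stress frees p53 from that brake, it binds response elements near its targets and induces genes of cell cycle arrest, repair, metabolism and cell death. Embryonic fibroblasts are a classical cell type for this response, because serial culture activates the p19Arf and p53 axis and ends in senescence unless the axis is lost.

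Across the 10 genes, most ratios leaned toward B. The log2(B/A) in the authors' deposited table was above 0 for 8 of 10, against 47.2% of the 12401 genes whose mean normalized count, averaged over both sides, reached 50. A normalized count is the count of a gene divided by the size factor of its library. The median of the 10 genes was 0.55, and their values ran from -1.40 for Gdf15 to 1.53 for Fas, while the median of all 12401 genes was -0.04. By a 2-fold rule, a log2(B/A) of at least 1 in size, Fas and Mdm2 were higher in B, 2 of 10 against a background of 8.31%. Gdf15 was higher in A by the same rule, 1 of 10 against 9.60%. In bulk RNA, fewer cells expressing a gene and less RNA per cell cannot be told apart.

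**Figure D1:**
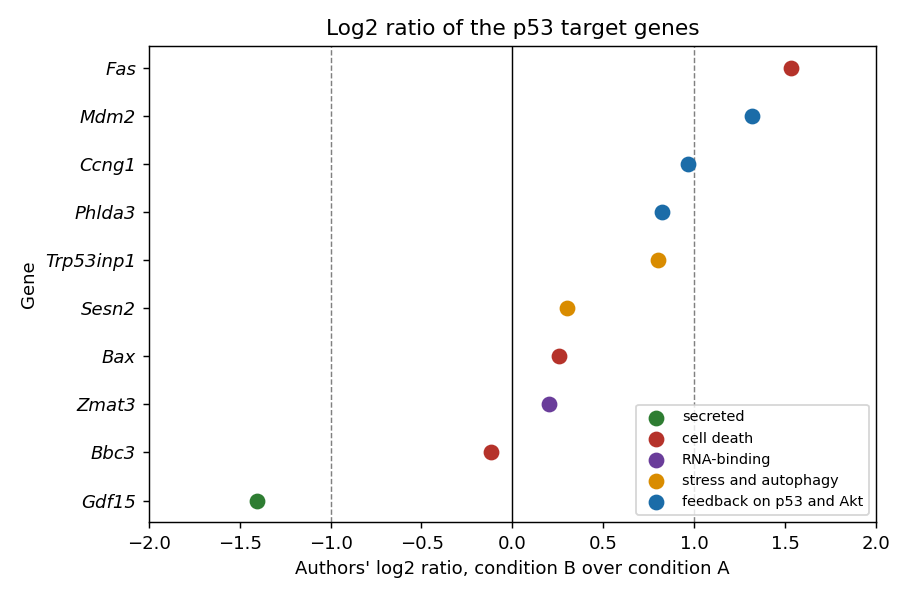
Each point is the authors' log2(B/A) (x axis) for 1 of the 10 p53 target genes (y axis), coloured by role, from 1 library per side and with no error bar for that reason. Dashed lines mark a log2(B/A) of 1 in size. Fas (1.53) and Mdm2 (1.32) lie beyond the line toward B, Ccng1 (0.97) lies just short of it, and Gdf15 (-1.40) lies beyond the line toward A.

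An adjusted p under 0.1 was listed for 0 of the 10 genes by DESeq in the authors' deposited table. That threshold, set here, was passed by 1.98% of the 12401 genes toward B and by 1.22% toward A. A raw p under 0.05 was listed for 2 of the 10, Fas and Mdm2, against 8.72% of the 12401 genes. The 10 genes have mean normalized counts between 1103 and 51319. Among the 8008 genes of the table within that range, the smallest log2(B/A) in size with an adjusted p under 0.1 was 1.97, larger than the largest of these genes, 1.53. Within the range, 4.03% of genes had a log2(B/A) of at least 1 and 5.44% had one of -1 or less.

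All 3 feedback genes lay toward B, at log2(B/A) values between 0.82 and 1.32. Mdm2, the ubiquitin ligase that marks p53 for degradation, was 2.49-fold higher in B in the authors' deposited table and had a mean normalized count of 17839 over both sides (log2(B/A) 1.32, raw p = 0.0339, adjusted p = 0.618 from the authors' DESeq). Ccng1, which encodes cyclin G1, a protein that recruits a phosphatase to Mdm2, was 1.95-fold higher in B in the authors' deposited table (log2(B/A) 0.97, raw p = 0.114, DESeq adjusted p = 1). Its mean normalized count of 51319 was the highest of the 10 genes. Phlda3, a pleckstrin-homology protein that restrains Akt at the membrane, was 1.77-fold higher in B in the authors' deposited table at a mean of 11810 (log2(B/A) 0.82, raw p = 0.185).

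The regulator of RNA processing and the stress genes also lay toward B, none of them past the 2-fold rule. Zmat3, a zinc-finger protein that binds RNA and shapes splicing and transcript stability, was 1.15-fold higher in B in the authors' deposited table at a mean of 11952 (log2(B/A) 0.20, raw p = 0.741). The non-coding gene 4930429B21Rik overlaps Zmat3 in the RefSeq annotation of GRCm38.p6. It had a log2(B/A) of 0.26 at a mean of 544 in the authors' deposited table. The kit does not mark strand, so reads shared by the 2 genes cannot be told apart. No other gene of that annotation overlaps any of the 10. Trp53inp1, a nuclear and autophagosomal protein that promotes p53 activity and autophagy, was 1.74-fold higher in B in the authors' deposited table at a mean of 12163 (log2(B/A) 0.80, raw p = 0.196). Sesn2 encodes sestrin 2, a leucine sensor that inhibits mTORC1. Its ratio in the authors' deposited table was 1.23 at a mean of 7074 (log2(B/A) 0.30, raw p = 0.629).

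Among the 3 cell death genes the ratio was largest for the receptor. Fas, the death receptor at the cell surface, had the largest ratio of the 10 genes, 2.89-fold higher in B in the authors' deposited table at a mean normalized count of 1618 (log2(B/A) 1.53, raw p = 0.0268, DESeq adjusted p = 0.536). Bax, the effector that permeabilizes the outer mitochondrial membrane, had a ratio of 1.19 in the authors' deposited table at a mean of 9472 (log2(B/A) 0.25, raw p = 0.680). Bbc3, which encodes the BH3-only protein Puma, had a ratio of 0.922 in the authors' deposited table at a mean of 1550 (log2(B/A) -0.12, raw p = 0.864). Fas was therefore the one death gene of the 3 past the 2-fold rule.

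Gdf15, a secreted cytokine of the TGF-beta superfamily that is induced by p53 and also by the integrated stress response, went the other way. It was 2.65-fold higher in A in the authors' deposited table at a mean of 1103, the lowest of the 10 genes (log2(B/A) -1.40, raw p = 0.0516, DESeq adjusted p = 0.810). In the ranking of the 12401 genes by log2(B/A), Gdf15 stood at percentile 5.94 and Bbc3 at percentile 43.4. The other 8 genes stood between percentile 69.1 (Zmat3) and percentile 94.8 (Fas).

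**Figure D2:**
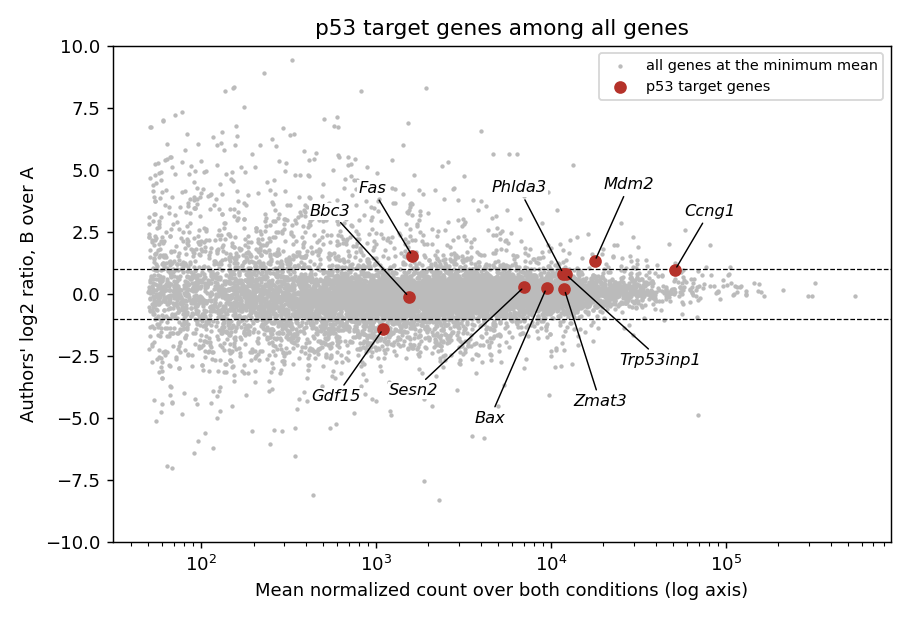
Each grey point is 1 gene whose mean normalized count reached 50 and whose ratio is finite, with the mean over both sides on the x axis (log axis) and the authors' log2(B/A) on the y axis. The 10 p53 target genes are red and named. They lie at means from 1103 to 51319, and dashed lines mark a log2(B/A) of 1 in size.

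A p53 response element is built from decamers, 10-base units that follow a degenerate consensus and read the same on both strands. Promoter windows from RefSeq on GRCm38.p6, running from 250 bases before to 50 bases after an annotated start, were held for 8 of the 10 genes. Zmat3 and Trp53inp1 were the others. A gene with several windows was counted if any of them held a match. The decamer with 0 mismatches lay in the window of 3 of these 8 genes, Mdm2, Ccng1 and Bax. The shares were 9.55% of 27025 genes with a window and 8.25% of the 9231 such genes that reached a mean normalized count of 50. With 1 mismatch allowed, 4 of the 8 genes had a decamer, against 54.2% of the 27025. The stretches from 250 to 101 bases before the start are shown because they hold the decamers with 0 mismatches. Capitals mark the decamer, and 0 exons of the GENCODE M21 basic annotation overlap any of the stretches. All 3 genes lie on the minus strand, and the sequences read 5′ to 3′ toward the gene. The Mdm2 stretch is chr10:117710859-117711008, that of Ccng1 is chr11:40755387-40755536 and that of Bax is chr7:45466999-45467148.
Mdm2: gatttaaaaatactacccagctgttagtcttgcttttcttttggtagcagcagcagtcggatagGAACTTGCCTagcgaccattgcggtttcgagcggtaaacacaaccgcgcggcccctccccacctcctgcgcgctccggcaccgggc
Ccng1: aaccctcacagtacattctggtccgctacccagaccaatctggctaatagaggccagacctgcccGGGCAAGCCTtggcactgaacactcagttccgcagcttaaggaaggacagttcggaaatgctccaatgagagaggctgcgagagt
Bax: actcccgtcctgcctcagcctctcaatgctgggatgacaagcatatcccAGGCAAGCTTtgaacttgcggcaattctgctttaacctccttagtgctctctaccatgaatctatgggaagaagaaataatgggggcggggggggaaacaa

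The decamer began 186 bases before the start in Mdm2, 185 bases before it in Ccng1 and 201 bases before it in Bax. In Ccng1 the 10 bases directly before the capitals, AGACCTGCCC, match the consensus with 1 mismatch, so that the pair of decamers adjoins with a gap of 0 bases. A pair of this kind, 1 decamer with 0 mismatches and another with at most 1 within 13 bases, lay in the window of 1 of 8 of these genes and in 0.718% of all genes with a window. The search for pairs was chosen after the data were seen. The windows of Phlda3, Sesn2, Bbc3, Fas and Gdf15 held 0 decamers without a mismatch. Set beside the values, the genes with a match had a log2(B/A) of 1.32 (Mdm2), 0.97 (Ccng1) and 0.25 (Bax) in the authors' deposited table, and those without ran from -1.40 (Gdf15) to 1.53 (Fas). These are matches of letters in a short window and were not tested as binding sites, and p53 sites that lie in introns fall outside it.

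Levels can be compared between genes only per length. Divided by the length of the longest GENCODE M21 transcript, the mean normalized count over both sides was highest for Ccng1, at 14612 per kilobase. Bax followed at 8611 and Phlda3 at 8230 per kilobase, and Mdm2 at 5672. Trp53inp1 lay at 2239, Sesn2 at 2036 and Zmat3 at 1533 per kilobase. The lowest were Fas at 996, Bbc3 at 854 and Gdf15 at 714 per kilobase. Fas and Gdf15, the genes with the largest ratios in each direction, thus belonged to the low end of the 10. Without replicates, it cannot be said which neighbours in this order differ beyond their spread, and which isoforms the authors counted is not stated.

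Among the regulators of p53, most values lay toward A. Of 20 regulators listed, 18 reached the minimum mean, with a median log2(B/A) of -0.37. Of the 18, 4 lay above 0 (22.2%), against 47.2% of the 12401 genes. Trp53, the gene of p53 itself, had a ratio of 0.855 in the authors' deposited table at a mean of 8879 (log2(B/A) -0.23, raw p = 0.716). Mdm4, the relative of Mdm2 that blocks p53 transactivation, had a log2(B/A) of -0.31 there at a mean of 2190. By the 2-fold rule 1 was higher in B and 1 higher in A, 5.56% each, against 8.31% and 9.60% of the 12401 genes. The regulator higher in B was Cdkn2a, the locus of p16Ink4a and of p19Arf, which inhibits Mdm2. It was 3.98-fold higher in B in the authors' deposited table at a mean of 9644 (DESeq adjusted p = 0.0854), and was the one regulator of the 18 that passed 0.1. The checkpoint kinase gene Chek1 was 3.50-fold higher in A in the authors' deposited table (log2(B/A) -1.81, adjusted p = 0.519), and the damage kinase gene Atm had a log2(B/A) of -0.88. RNA level does not show p53 protein, which is controlled mainly by degradation.

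Other p53 targets were taken from 5 lists with 62 genes, of which 61 reached the minimum mean. By the 2-fold rule 10 were higher in B (16.4%) and 6 higher in A (9.84%), with a median log2(B/A) of 0.34 in the authors' deposited table. The shares over the 12401 genes were 8.31% and 9.60%, so the share higher in A was near the background. Of these 61, 39 had a log2(B/A) above 0 (63.9%), against 47.2%. An adjusted p under 0.1 was listed for 3, Ptprv, Igfbp3 and Kitl, each higher in B (4.92% against 1.98%), and for 0 higher in A (against 1.22%). Raw p was under 0.05 for 8 of the 61 (13.1% against 8.72%).

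Among 15 targets of arrest and feedback, 4 were higher in B (26.7%) and 1 higher in A (6.67%) by the 2-fold rule. Their median log2(B/A) was 0.35, and the shares over the 12401 genes were 8.31% and 9.60%. Cdkn1a, the gene of the cell cycle inhibitor p21, was 2.05-fold higher in B in the authors' deposited table at a mean of 30715 (log2(B/A) 1.03, raw p = 0.0921). Ptprv, a receptor tyrosine phosphatase that mediates p53-dependent arrest in mouse cells, was 19.6-fold higher in B in the authors' deposited table at a mean of 2799 (log2(B/A) 4.29). Rprm, an inducer of G2 arrest, lay at 2.13 in the authors' deposited table with an adjusted p of 0.234. Sfn, the gene of the checkpoint adaptor stratifin, lay on the other side at -2.71 with an adjusted p of 0.216. Among 10 secreted or surface targets, 4 were higher in B and 1 higher in A, with a median of 0.67. Igfbp3, a binding protein of insulin-like growth factors, lay at 4.32 in the authors' deposited table. Kitl, the ligand of the receptor Kit, lay at 3.19 in the authors' deposited table (DESeq adjusted p = 0.00176), and the cytokine gene Lif at -1.64.

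Targets of cell death, repair and metabolism had list medians between 0.06 and 0.34. Over the 12401 genes, 8.31% were higher in B and 9.60% higher in A by the 2-fold rule. Of 13 death targets at the minimum mean, 1 was higher in B (7.69%) and 2 higher in A (15.4%), with a median log2(B/A) of 0.14. Those 3 were Eda2r, a receptor of the tumour necrosis factor family, at 1.11, the lysosomal autophagy gene Dram1 at -1.43 and the metalloreductase gene Steap3 at -1.94 in the authors' deposited table. Of 9 repair and nucleotide genes, 0 were higher in B and 1 higher in A (11.1%) by the 2-fold rule, with a median of 0.34. The repair nuclease gene Ercc5 had a log2(B/A) of 0.77 and the polymerase gene Polk one of 0.76 there. Of 14 metabolism and redox genes, 1 was higher on each side (7.14%), with a median of 0.06. They were the xylulose reductase gene Dcxr at 1.17 and the drug efflux gene Abcb1a at -1.01, and the glutaminase gene Gls2 lay at -0.90. Over these 36 genes the median was 0.20. The authors' deposited table lists 2 of them at a raw DESeq p under 0.05 (5.56%, against 8.72% of the 12401 genes). It lists 0 of them at an adjusted DESeq p under 0.1, against 1.98% toward B and 1.22% toward A.

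**Figure D3:**
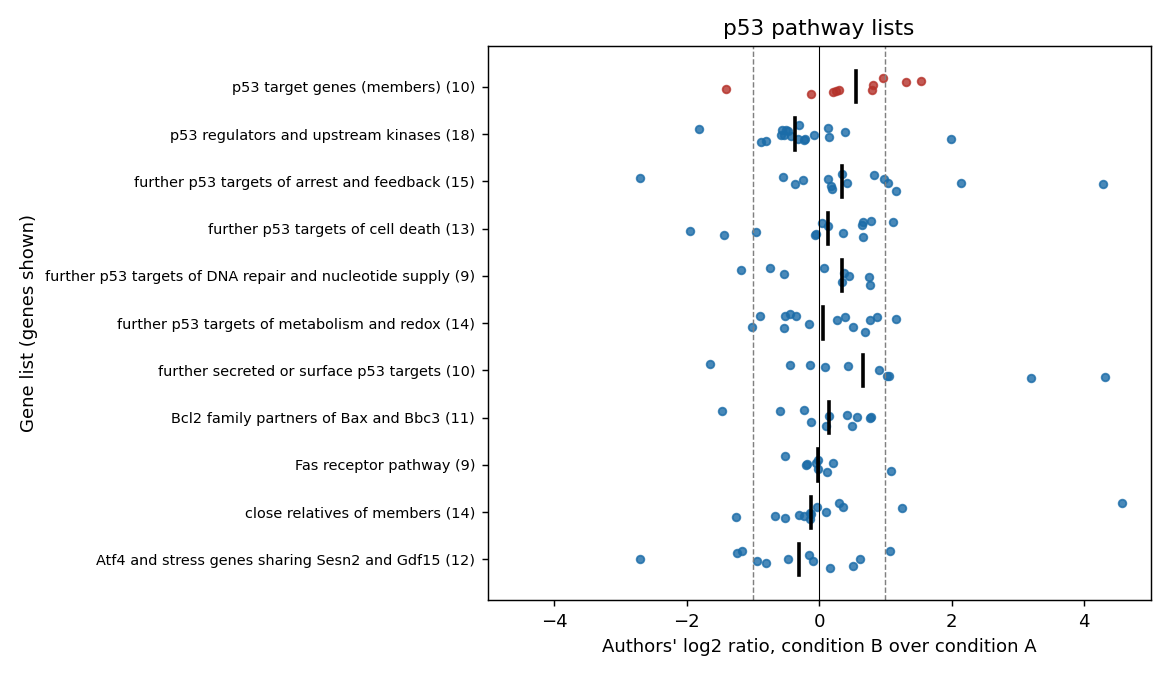
Each point is the authors' log2(B/A) (x axis) for 1 gene whose mean normalized count reached 50, and each row (y axis) is a gene list with the number of genes shown in brackets. Black bars are list medians, dashed lines mark a log2(B/A) of 1 in size, and vertical scatter within a row carries no value. The median of the 10 p53 target genes (0.55) lies to the right of that of the p53 regulators (-0.37).

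The partners of Bax, Bbc3 and Fas were listed as well. By the 2-fold rule, 8.31% of the 12401 genes were higher in B and 9.60% higher in A. Of 11 Bcl2 family genes at the minimum mean, 0 were higher in B and 1 higher in A (9.09%), with a median log2(B/A) of 0.15. That gene was Bmf, which encodes a BH3-only protein, at -1.47 and a mean of 258 in the authors' deposited table. Pmaip1, the gene of the BH3-only protein Noxa and itself a p53 target, had a log2(B/A) of 0.79 there, and Bcl2l1, the gene of the survival protein Bcl-xL, one of 0.77. In the Fas pathway, 1 of 9 genes was higher in B (11.1%) and 0 higher in A by the 2-fold rule, with a median of -0.02. Cflar, whose product c-FLIP blocks caspase 8 at the Fas receptor, was 2.12-fold higher in B in the authors' deposited table (raw p = 0.0874, DESeq adjusted p = 1). The adaptor kinase gene Ripk1 had a log2(B/A) of 0.21 there.

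Measures of the whole table bear on how these ratios read. The targeted genes Tet1 and Tet2 were 3.54-fold and 1.67-fold higher in A in the authors' deposited table, with DESeq adjusted p-values of 0.851 and 1, which does not fix the genotype of either side. All 6 fibroblast markers had mean normalized counts between 25380 and 312018. Of 10 markers of epithelium, endothelium and blood cells, 3 reached a mean of 50, the highest being Kdr at 418, and Adgre1 was listed at 0. The fibroblast surface marker Thy1 was 7.35-fold higher in B in the authors' deposited table (DESeq adjusted p = 0.00133) and Kdr, of endothelium, was 6.88-fold higher in B (DESeq adjusted p = 0.1001). Both ratios exceed those of all 10 genes. The other fibroblast markers lay between -0.08 (Col1a1) and 0.66 (Pdgfrb) in log2(B/A). The other defining endothelial markers, Pecam1 and Cdh5, had means of 9.80 and 8.43, with log2(B/A) values of 2.06 and -0.36. Krt18, of epithelium, was 4.88-fold higher in A at a mean of 111. Krt8, Epcam and Cdh1 also lay toward A, at means below 50. Cd68, of blood cells, had a log2(B/A) of 0.18. Mki67, a marker of cycling cells chosen after its values were known, was listed in the authors' deposited table as 4.79-fold higher in A, with a DESeq adjusted p of 0.0298. The part of these marker differences in the ratios of the 10 genes was not tested.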

How the data were processed

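RNA of 2 samples of mouse embryonic fibroblasts was sequenced, 1 library per genotype, from TruSeq RNA v2 libraries per the labels' protocols. TopHat2 2.0, DESeq and the build mm9 stand in the submitters' processing notes, which here give neither counter nor annotation. The authors' deposited signal is the mean over both conditions of counts divided by size factors. The deposited ratio is condition B over condition A, and the deposited log2 ratio is its base-2 logarithm with no pseudocount. The deposited p-values are raw and Benjamini-Hochberg adjusted over 17339 genes.

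Here 2 columns of per-condition values were not used, because their names match neither sample's labels; they were read once, only to establish that the ratio is B over A. Depth per library, counting intervals and values per sample are therefore not given. No test was run. Genes with a mean of at least 50 were described by a log2 ratio past 1 or -1 and by the authors' adjusted p under 0.1. The members, lists and thresholds were chosen with earlier results of these data known. Named are the 10 genes, Tet1, Tet2, Trp53, Cdkn1a, Cdkn2a, Mdm4 and the 3 largest ratios in size of each of 10 lists. Some genes that this rule takes are left out of the text. In these lists 3 symbols were matched through RefSeq synonyms. Alternatives were other minimum means and sizes, centring on the median or on a trimmed mean (30% of the ratios and 5% of the mean levels cut from both ends), and decamers with a mismatch. The 2-fold rule, the trimmed mean and the decamer search were tested on simulated data. The simulated counts varied only by random sampling of reads. They do not show how often 2 libraries of the same genotype differ 2-fold. The trimmed mean was checked only with a constant shift of all ratios. Python 3.11.15, pandas 2.3.3, numpy 2.4.6 and matplotlib 3.10.9 were used.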

Additional observations from a re-analysis of the deposited data

How the results depend on the processing

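Centring on the median log2(B/A) of all genes moved the median of the 10 genes to 0.59, and Ccng1 then passed the 2-fold rule at 1.00, giving 3 genes higher in B. Centring on the trimmed mean left each of the 10 genes on its side of the 2-fold rule. Minimum means of 10, 200 or none left the counts at 2 genes higher in B and 1 higher in A. They could not change these counts, because the lowest mean of the 10 genes was 1103. A log2(B/A) of at least 2 was reached by 0 of the 10 genes in either direction. One of 1.5-fold size was reached by 5 toward B and 1 toward A. Of the other p53 targets, 4 toward B and 1 toward A reached 2, and 22 toward B and 9 toward A reached 1.5-fold. The shares of all genes past these sizes were not computed, so these counts were not set against a background. With 1 mismatch allowed, 4 of 8 genes had a decamer in a window against 54.2% of all genes with a window, and a pair of decamers, an alternative chosen after the data were seen, lay in 1. No paired analysis was possible because each genotype has 1 library. No library could be left out for the same reason.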

Other observations

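Close relatives of the 10 genes, most of them not known chiefly as p53 targets, lay on both sides. Of 14 relatives at the minimum mean, 5 had a log2(B/A) above 0 in the authors' deposited table (35.7%, against 47.2% of the 12401 genes). Their median was -0.13. By the 2-fold rule 2 were higher in B (14.3% against 8.31%) and 1 higher in A (7.14% against 9.60%). Gdf10, like Gdf15 a ligand of the TGF-beta superfamily, had a log2(B/A) of 4.57 in the authors' deposited table at a mean of 152 (adjusted p = 0.0572), opposite in sign to that of Gdf15 (-1.40). Sesn3, a sestrin gene, lay at -1.25 where Sesn2 lay at 0.30. Tnfrsf21, a death receptor gene like Fas, lay at 1.25. Neither Sesn3 nor Tnfrsf21 passed an adjusted p of 0.1 in the authors' deposited table.

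Sesn2 and Gdf15 also respond to amino acid and endoplasmic reticulum stress through Atf4. Of 12 listed genes of that response, 1 was higher in B (8.33%) and 3 higher in A (25.0%) by the 2-fold rule. The shares over the 12401 genes were 8.31% and 9.60%. The median log2(B/A) of the 12 was -0.31 in the authors' deposited table. Of the 12, 4 lay above 0, the side of Sesn2 (33.3%, against 47.2% of the 12401 genes). The cystine transporter gene Slc7a11 was 6.49-fold higher in A in the authors' deposited table at a mean of 2334 (DESeq adjusted p = 0.00940). The authors' deposited table puts Psat1, of serine synthesis, at -1.23 and the pseudokinase gene Trib3 at -1.16. Gdf15 lay on the side of these 3 genes and Sesn2 did not, and the part of this response in either value was not tested.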
